A study of Mus musculus with 25 samples.

Results

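Transcript levels of 10 genes that mark or build the primitive endoderm were followed in mouse E14 embryonic stem (ES) cells. The cells carried missense mutations of *Ctnnb1*, which encodes β-catenin, or were unedited and grown with or without a small molecule that stabilizes β-catenin. Stabilization itself was not measured in these libraries, and the mutations ranged from weak to strong in the study's reporter assay. The 10 genes were *Gata6*, *Gata4*, *Sox17*, *Dab2*, *Lama1*, *Lamb1*, *Col4a1*, *Col4a2*, *Sparc* and *Srgn*, out of 48440 genes in the count table, and each was found by its Ensembl identifier. They were chosen by their high values in 1 library, S37Y clone A5, so the levels in that clone are given as a description with no test.

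The primitive endoderm is the epithelium that forms beside the epiblast in the blastocyst and later gives rise to visceral and parietal endoderm. In ES cell cultures its programme is led by GATA6, with GATA4 and SOX17 following, and it opposes the NANOG-led epiblast programme under the influence of FGF-ERK signalling. Parietal endoderm is known for secreting the thick basement membrane called Reichert's membrane, which is rich in laminin, type IV collagen and SPARC.

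E14 (E14IVtg2a) is a feeder-free mouse ES line that was grown in serum with leukemia inhibitory factor. The edited cells were 15 clones, each 1 picked and expanded colony with 1 library, and each heterozygous for 1 of 11 missense mutations at codon 37, 41 or 45 of *Ctnnb1*, made by replacing a puroΔTK cassette at that locus with a repair template. The unedited cells comprised 10 libraries, with 2 at each of 0, 2.5, 5, 7.5 and 10 µM CHIR99021, a GSK3β inhibitor that stabilizes β-catenin, given for 48 h. All clones were at 0 µM, so the unedited libraries at 0 µM match them in dose. On the study's mutation effect score (MES), which came from a separate reporter assay and not from these libraries, the mutations S37A, S37C, S37F, S37Y, T41A and T41I were strong (9 clones) and S45F, S45P, S45C, T41N and T41S were weak (6 clones). This cut is the one the study set for liver tumours, whereas it sorted these clones into low, medium and high MES categories, so each class here may span more than 1 of those. Without clone A5 the strong class held 8 clones: S37A A10, S37C G12, S37F G1 and H2, T41A C1 and E6, and T41I A6 and B9. The weak class held S45F C1 and D9, S45P G5, S45C D3, T41N D3 and T41S H8.

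Libraries were made with mcSCRB-seq, in which cDNA from transcript 3′ ends carries a molecular barcode so that PCR copies are counted once, and levels are given as CPM, the counts of a gene scaled to a common library total. Totals ran from 306157 to 2083398 counts per library, and clone A5 had the largest total of the clones (2025273). A count of 0 allowed up to 3 counts, or 1.44 to 9.80 CPM depending on the library. Intervals below are Wilson 95% intervals and cover counting error only. In bulk RNA, fewer expressing cells and less RNA per cell cannot be told apart. Nothing in the labels says that the 2 libraries of a dose were separate cultures, so p-values there measure the spread between these libraries.

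The label of ES cells was checked against marker genes. The summed level of 12 epiblast genes was 5649 to 6533 CPM in the 8 strong clones, 2043 to 5741 CPM in the 6 weak clones, 4833 to 4960 CPM in the untreated libraries and 5714 CPM in clone A5. Core ES factors were present in every clone, with *Nanog* at 198 CPM in the clone where it was lowest, T41S H8, and *Pou5f1* counted at 9.05 to 28.8 CPM. Clone A5 held *Nanog* at 512 CPM and *Esrrb* at 586 CPM, both inside the range of the other 14 clones. Of the markers of differentiated endoderm, *Afp* and *Ttr* had 0 counts in all 15 clones, and *Rbp4* reached at most 4.65 CPM, *Apoa1* 2.40 CPM and *Hnf4a* 1.55 CPM. The blood genes *Ptprc* and *Hba-a1* had 0 counts in all 15 clones.

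**Figure D1:**
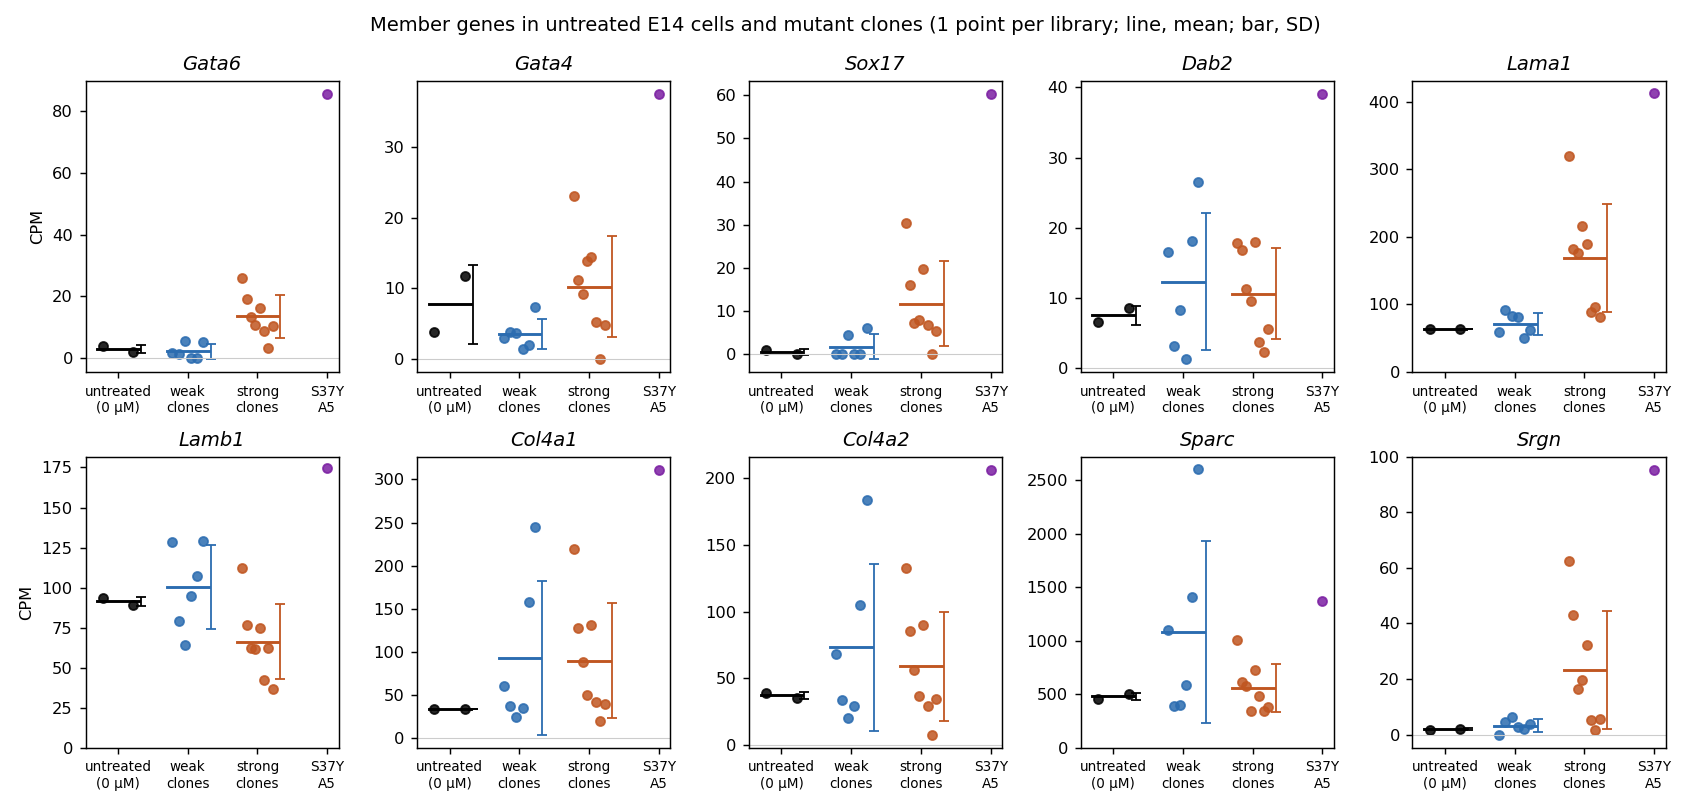
CPM (y axis) of the 10 genes in untreated unedited cells (2 libraries), weak clones (6), strong clones without A5 (8) and S37Y clone A5, with 1 point per library, a line at the mean and a bar for the SD. For *Gata6*, *Sox17*, *Srgn* and *Lama1* the strong clones lay mostly above the weak clones, whereas for *Sparc* and *Lamb1* the highest points other than A5 were weak clones.

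*Gata6*, the transcription factor at the head of the primitive endoderm programme, reached 85.4 CPM in clone A5 (173 counts, interval 73.6 to 99.1). The next clone, S37A A10, had 26.1 CPM (interval 18.7 to 36.2), and the median of the other 14 clones was 7.21 CPM. Among the 8 strong clones *Gata6* was lowest at 3.10 CPM in T41I A6, with a median of 12 CPM and a highest value of 26.1 CPM. Among the 6 weak clones it ran from 0 to 5.50 CPM with a median of 1.38 CPM, and S45P G5 and T41N D3 had no count, which allows up to 3.99 and 6.05 CPM. Of the 8 strong clones, 7 lay above every weak clone, and T41I A6 alone lay within the weak range. The strong mean was 13.5 ± 7.01 CPM (SD, n = 8) and the weak mean 2.23 ± 2.46 CPM (SD, n = 6). The weak clones had only 0 to 9 counts each, so *Gata6* passed the filter on low counts through the strong clones alone, and its call among the 9539 genes that passed is not read as support. Its log2 fold change there was 2.26 ± 0.51 (SE) with an adjusted p of 0.0053 in edgeR (quasi-likelihood F-test, Benjamini-Hochberg). With no filter, over 21698 genes, it was 2.3 ± 0.46 (SE) with an adjusted p of 0.00079 (edgeR).

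In the 10 unedited libraries *Gata6* ran from 2.1 to 13.1 CPM, with a mean of 2.97 ± 1.19 CPM (SD, n = 2) at 0 µM and 7.66 ± 7.64 CPM (SD, n = 2) at 10 µM. These are 2 to 12 counts per library, and the gene did not reach the filter of the dose fit. Without the filter its slope was 0.081 ± 0.063 log2 units per µM (SE, adjusted p = 0.549, edgeR). A trend with dose was therefore not detectable at this depth.

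*Gata4*, a partner GATA factor of the same lineage, stood at 37.5 CPM in A5 and 23.1 CPM in S37A A10. The other strong clones ran from 0 CPM (T41I A6, which allows up to 2.33 CPM) to 14.4 CPM (T41A C1), and the weak clones from 1.33 to 7.34 CPM. Both classes overlapped, with 5 of 8 strong clones above every weak clone. *Gata4* did not pass the filter in this comparison, and without the filter its log2 fold change of 1.38 ± 0.48 (SE) had an adjusted p of 0.066 in edgeR. Untreated cells held 3.80 and 11.7 CPM, so the strong clones did not stand clear of them.

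*Sox17*, an HMG-box factor that acts downstream of the GATA factors in primitive endoderm, reached 60.2 CPM in A5 (122 counts, interval 50.5 to 71.9). S37A A10 followed at 30.5 CPM, T41A C1 at 19.8 CPM and S37C G12 at 16.0 CPM. The strong clones S37F H2, S37F G1, T41A E6 and T41I B9 had 8.01, 7.16, 6.69 and 5.51 CPM, and T41I A6 had no count (up to 2.33 CPM). The weak clones S45C D3, S45F C1, S45P G5 and T41N D3 had no *Sox17* count, while S45F D9 had 4.59 CPM and T41S H8 6.21 CPM. Of the 8 strong clones, 6 lay above every weak clone. In unedited cells the gene stayed at 0 to 3.27 CPM across all doses. *Sox17* did not pass the filter of the strong against weak fit. Without the filter the log2 fold change was 2.3 ± 0.62 (SE) with an adjusted p of 0.0134 (edgeR).

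*Srgn* encodes serglycin, a proteoglycan core protein of secretory granules, and its pattern resembled that of *Sox17*. It was at 95.3 CPM in A5 (193 counts, interval 82.8 to 109.7), 62.5 CPM in S37A A10, 43.2 CPM in S37C G12 and 32.4 CPM in T41A C1. The S37F clones G1 and H2 had 16.4 and 19.8 CPM, and T41A E6, T41I B9 and T41I A6 had 5.20, 5.51 and 1.55 CPM. The weak clones ran from 0 to 6.42 CPM, and 5 of 8 strong clones lay above all of them. All 10 unedited libraries fell between 0.75 and 3.29 CPM, and no trend with dose was detectable in 1 to 4 counts per library. *Srgn* failed the filter as well, and without it the log2 fold change of strong over weak clones was 2.67 ± 0.55 (SE, adjusted p = 0.00089, edgeR).

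*Lama1* and *Lamb1* encode the α1 and β1 chains of laminin-111, the first laminin of the embryo, and they behaved differently from each other. *Lama1* was at 413 CPM in A5 and 320 CPM in S37A A10, and the remaining codon 37 clones had 177 to 217 CPM. T41A C1 had 189 CPM, whereas T41A E6, T41I A6 and T41I B9 had 88.5, 97.0 and 82.0 CPM. The weak clones ran from 50.4 CPM (T41N D3) to 91.6 CPM (S45F C1), and 6 of 8 strong clones lay above all of them. Strong clones averaged 169 ± 80.2 CPM (SD, n = 8) against 71.4 ± 16.3 CPM (SD, n = 6) in weak clones. The log2 fold change of 1.24 ± 0.27 (SE) passed the test (adjusted p = 0.0046, edgeR), and it lay between 1.04 and 1.34 when each clone was left out in turn.

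*Lama1* also rose with CHIR99021 in unedited cells. The 2 libraries of each dose held 64.1 and 63.8 CPM at 0 µM, 108 and 93.0 CPM at 2.5 µM, 123 and 159 CPM at 5 µM, 184 and 153 CPM at 7.5 µM, and 131 and 180 CPM at 10 µM. Every treated library lay above both untreated libraries, and the 3 highest doses overlapped. The slope was 0.139 ± 0.019 log2 units per µM (SE, adjusted p = 4.76e-06, edgeR, 10033 genes tested). It fell to 0.093 per µM without the untreated libraries and still passed (adjusted p = 0.029, edgeR).

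*Lamb1* was at 175 CPM in A5, above the 129 CPM of T41S H8 and the 128 CPM of S45C D3. Here the weak clones held the higher values, with a mean of 100.4 ± 26.3 CPM (SD, n = 6) against 66.1 ± 23.4 CPM (SD, n = 8) in the strong clones, and the classes overlapped. The log2 fold change of -0.59 ± 0.22 (SE) did not pass the test (adjusted p = 0.070, edgeR). It passed without S37A A10 (-0.74, adjusted p = 0.020), without S45F C1 (-0.65, adjusted p = 0.048) and without S45F D9 (-0.69, adjusted p = 0.031). In unedited cells *Lamb1* ran from 49.0 to 93.5 CPM with a slope of -0.021 ± 0.018 log2 units per µM (SE, adjusted p = 0.509, edgeR), a change that was not detectable.

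**Figure D2:**
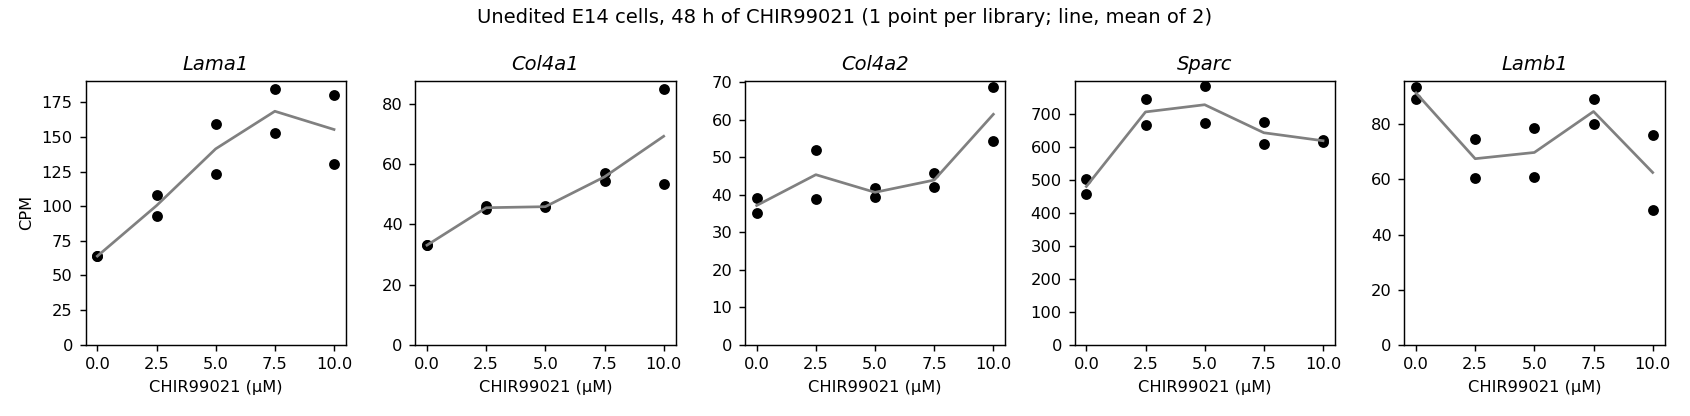
CPM (y axis, from 0) of *Lama1*, *Col4a1*, *Col4a2*, *Sparc* and *Lamb1* against the CHIR99021 dose in µM (x axis) in unedited cells, with 1 point per library and a line through the mean of the 2 libraries. *Lama1* rose from a mean of 64.0 CPM at 0 µM to 168 CPM at 7.5 µM, and *Col4a1* from 33.1 CPM at 0 µM to 69.2 CPM at 10 µM, while *Sparc* was highest at 5 µM.

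*Col4a1* and *Col4a2* encode the 2 chains of the major type IV collagen, the network-forming collagen of basement membranes. The genes lie head to head on chromosome 8, *Col4a1* on the minus strand (chr8:11198423-11312826) and *Col4a2* on the plus strand (chr8:11312805-11449287) in GENCODE M21 (GRCm38). Their annotated starts are 21 bases apart, so the genes overlap at their 5′ ends. Their promoter windows are shown because the levels of both genes moved together across the libraries. Each runs from 250 bases before to 50 after the RefSeq start (GRCm38.p6), 5′ to 3′ on the strand of its gene, and the capitals mark the 78 bases that the windows share, read from opposite strands.
Col4a1 (chr8:11312777-11313076, minus strand): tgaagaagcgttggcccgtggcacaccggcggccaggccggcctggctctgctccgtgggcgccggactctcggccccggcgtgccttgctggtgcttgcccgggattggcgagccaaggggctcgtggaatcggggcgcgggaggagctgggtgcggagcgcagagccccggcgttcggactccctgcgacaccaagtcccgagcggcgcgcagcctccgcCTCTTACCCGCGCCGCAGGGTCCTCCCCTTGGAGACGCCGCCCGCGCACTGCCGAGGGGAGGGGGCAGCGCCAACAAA
Col4a2 (chr8:11312555-11312854, plus strand): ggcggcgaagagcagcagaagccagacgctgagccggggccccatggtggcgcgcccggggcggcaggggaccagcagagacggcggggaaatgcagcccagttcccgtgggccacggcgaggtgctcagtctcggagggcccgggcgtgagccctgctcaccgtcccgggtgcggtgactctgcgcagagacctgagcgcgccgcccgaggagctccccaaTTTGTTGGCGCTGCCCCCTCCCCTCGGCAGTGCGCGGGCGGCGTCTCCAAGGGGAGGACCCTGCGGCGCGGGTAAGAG

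*Col4a1* was at 311 CPM in A5 and *Col4a2* at 206 CPM, and in both cases the next clone was T41S H8, with 245 and 184 CPM. S37A A10 had 220 and 132 CPM, and T41N D3, a weak clone, had 157 and 105 CPM. T41A C1 and S37C G12 had 131 and 128 CPM of *Col4a1*. The lowest values were in T41I A6, at 19.4 CPM of *Col4a1* and 7.76 CPM of *Col4a2*. High and low clones were thus found in both classes, which overlapped over nearly their whole range.

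Strong clones averaged 89.6 ± 67.0 CPM of *Col4a1* (SD, n = 8) and weak clones 93.0 ± 89.2 CPM (SD, n = 6). The log2 fold changes were -0.08 ± 0.53 for *Col4a1* (SE, adjusted p = 0.938) and -0.35 ± 0.50 for *Col4a2* (SE, adjusted p = 0.681, edgeR), neither past the threshold. Without T41S H8 they turned to 0.70 ± 0.50 and 0.36 ± 0.47 (SE, adjusted p = 0.404 and 0.680, edgeR). The sign of *Col4a1* changed in 6 of the 14 fits that left out 1 clone, and that of *Col4a2* changed in 1. *Col4a1* ran from -0.41 to 0.70 over these fits and was highest without T41S H8. As its fold change of -0.08 was small beside its SE, the sign alone cannot show how far it rests on 1 clone. T41S H8, T41N D3 and S45C D3 were also left out together, a choice made after seeing the values. The fold changes of *Col4a1* and *Col4a2* were then 1.52 ± 0.55 and 1.09 ± 0.53 (SE, adjusted p = 0.129 and 0.261, edgeR). The S45F and S45P clones alone averaged 31.6 ± 6.79 CPM of *Col4a1* (SD, n = 3), near the 33.1 ± 0.14 CPM of untreated cells (SD, n = 2).

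Under CHIR99021 *Col4a1* had 33.2 and 33 CPM at 0 µM, 46.0 and 45 CPM at 2.5 µM, 46.1 and 45.6 CPM at 5 µM, 54.4 and 57.0 CPM at 7.5 µM, and 84.9 and 53.5 CPM at 10 µM. Both untreated libraries lay below every treated one. The slope of 0.084 ± 0.020 log2 units per µM passed the test (SE, adjusted p = 0.0043, edgeR), but not without replicate 1 at 0 µM (0.074, adjusted p = 0.063) or without both untreated libraries (0.061, adjusted p = 0.411). *Col4a2* ran from 35.1 to 68.6 CPM over the same libraries, with a slope of 0.043 ± 0.020 log2 units per µM that did not pass (SE, adjusted p = 0.179, edgeR).

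*Sparc* encodes a secreted glycoprotein that binds type IV collagen. It was the 1 gene of the 10 in which A5 was not the highest clone, at 1374 CPM against 2600 CPM in T41S H8 and 1404 CPM in T41N D3. S45C D3 had 1101 CPM and S37A A10 1002 CPM, and the lowest clone was S37F H2 at 341 CPM. The 3 weak clones T41S H8, T41N D3 and S45C D3 lay above all 8 strong clones, while the S45F and S45P clones had 387 to 588 CPM, within the strong range. The log2 fold change of -0.96 ± 0.37 (SE) did not pass the test (adjusted p = 0.081, edgeR), and it turned to 0.32 ± 0.26 (SE, adjusted p = 0.550, edgeR) when those 3 clones were left out. It passed without S45F C1 (-1.12, adjusted p = 0.027) or S45F D9 (-1.13, adjusted p = 0.030), and with no filter on low counts (-0.91, adjusted p = 0.027). In unedited cells *Sparc* stood at 458 and 502 CPM at 0 µM and at 609 to 783 CPM in the 8 treated libraries. Every treated library was above both untreated ones, yet the linear slope of 0.024 ± 0.016 log2 units per µM did not pass (SE, adjusted p = 0.391, edgeR), as the means fell from 728 CPM at 5 µM to 618 CPM at 10 µM.

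*Dab2* encodes a clathrin adaptor for endocytic receptors such as megalin and is a classic early gene of primitive endoderm. It was at 39.0 CPM in A5, 26.5 CPM in T41S H8, 18.2 CPM in T41N D3, 18 CPM in T41A C1 and 17.9 CPM in S37A A10. The lowest clones were S45P G5 at 1.33 CPM and T41I A6 at 2.33 CPM. The classes overlapped throughout, and the log2 fold change of -0.22 ± 0.50 (SE) did not pass (adjusted p = 0.806, edgeR). Like the collagens it changed sign without T41S H8, to 0.40 ± 0.52 (SE, adjusted p = 0.676, edgeR). In unedited cells it was at 6.52 and 8.51 CPM at 0 µM and at 0 and 2.26 CPM at 10 µM, on 0 to 12 counts per library. *Dab2* did not reach the filter of the dose fit, and without the filter, where 3.79% of all genes fell, its slope was -0.226 ± 0.074 log2 units per µM (SE, adjusted p = 0.039, edgeR).

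Promoter windows were found for 6 of the 10 genes, in 8 windows (*Col4a1*, *Col4a2*, *Sparc*, *Lamb1*, and 2 each for *Srgn* and *Dab2*). They were searched on both strands for the GATA motif in the forms TGATAA or AGATAA, or either of these with G as its last letter, which 29.8% of all 32851 windows of the same length hold at least once. The upstream *Dab2* window was the only one of the 8 with a match, and it held 2, shown in capitals, the second read from the minus strand. A SOX motif in the forms ACAATA or ACAAAG, or the first of these with G as its last letter, is held by 34.1% of the 32851 windows. It was matched 1 time in the 8, in a *Srgn* window. A TCF motif in the forms CTTTGAA or CTTTGAT is held by 8.65% of the 32851 windows and had no match in the 8. These searches describe letters in a window and not binding.
Dab2 (chr15:6299539-6299838, plus strand): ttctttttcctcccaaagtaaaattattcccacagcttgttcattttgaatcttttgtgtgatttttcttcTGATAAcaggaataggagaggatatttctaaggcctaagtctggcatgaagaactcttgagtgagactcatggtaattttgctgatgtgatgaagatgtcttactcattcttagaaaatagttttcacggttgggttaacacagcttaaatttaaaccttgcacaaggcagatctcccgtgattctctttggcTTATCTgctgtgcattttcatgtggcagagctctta

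Taking the 10 genes as a list, the 3 comparisons called few of them. In the dose fit 5 passed the filter and 2 rose (*Lama1* and *Col4a1*) while 0 fell, beside 5.89% of all genes rising and 6.63% falling. In strong against weak clones 7 passed the filter and 2 rose (*Gata6* and *Lama1*) while 0 fell, beside 7.34% of all genes rising and 9.16% falling. *Gata6* passed that filter through the strong clones alone, so of these calls only that of *Lama1* is read. With no filter on low counts 4 rose, *Sox17* and *Srgn* in addition, and 1 fell (*Sparc*), beside 3.93% of all genes rising and 5.02% falling in that fit. None of the 7 had all strong clones above all weak clones, which 1.29% of the genes tested did. *Lama1* passed in each of the 14 fits that left out 1 clone, but not without T41S H8, T41N D3 and S45C D3 together (1.00 ± 0.33, SE, adjusted p = 0.094, edgeR).

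**Figure D3:**
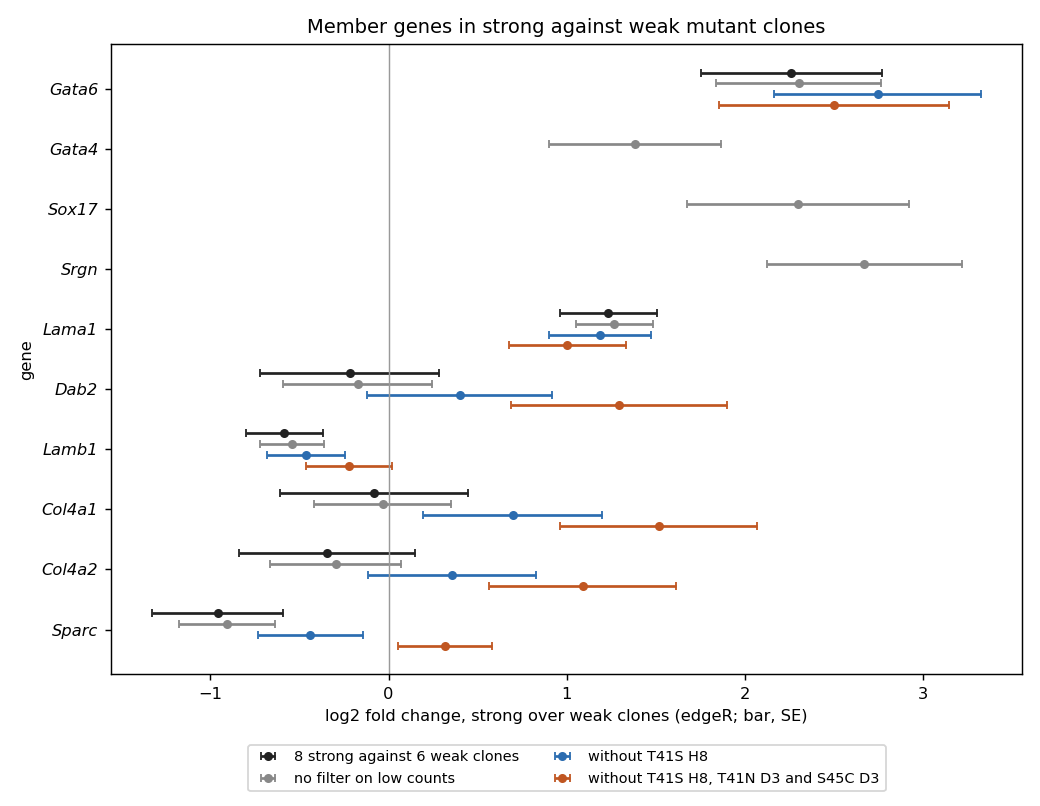
Log2 fold change of strong over weak clones (x axis, bars are SE, edgeR) for each gene, with all 14 clones, with no filter on low counts, without T41S H8, and without T41S H8, T41N D3 and S45C D3. *Gata6* and *Lama1* stayed above 0 in each setting, *Col4a1*, *Col4a2* and *Dab2* crossed 0 once T41S H8 was left out, and *Gata4*, *Sox17* and *Srgn* have a value only without the filter. *Col4a1* crossed 0 in 6 of the 14 fits that left out 1 clone. *Gata6* passed the filter through the strong clones alone, so its values are a description.

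Against the 2 untreated libraries, all 10 genes were tested in the 14 clones and none passed the threshold in either direction with edgeR or with DESeq2, beside 9.45% of all genes rising and 9.21% falling. At an unadjusted p under 0.05 the count was also 0 of 10 with edgeR. The largest fold changes were 3.35 ± 1.74 for *Sox17* and 3.01 ± 1.54 for *Srgn* on the log2 scale (SE, adjusted p = 0.189 and 0.181, edgeR). Both untreated libraries together held 2 *Sox17* and 5 *Srgn* counts. Both genes passed the filter through the clones. For *Col4a1*, 12 of 14 clones lay above both untreated libraries, and for *Lama1* and *Srgn* 11 of 14 did. *Gata4* had 3 clones above and 6 below both, *Col4a2* 7 above and 6 below, and *Lamb1* 5 above and 9 below. No share over all genes stands beside these counts, so they are not read as a result. Mitochondrial genes took 1.53% to 2.52% of the counts in the clones and 0.485% to 1.46% in the unedited libraries, without overlap, so clonal editing and this difference cannot be told apart.

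Clone A5 was above each of the other 14 clones and at least 2 times their median in 9 of the 10 genes, *Sparc* being the exception, and 0.827% of the genes whose mean reached 5 CPM met the same rule. The genes were selected on this pattern, so nothing is read from that count. Just inside the rule was *Col4a2*, at 206 CPM against 184 CPM in the next clone, and *Sparc* at 1374 against 2600 CPM lay outside. Over the median of the other clones the log2 ratio of (CPM + 1) was highest for *Srgn* (3.92), *Gata6* (3.40) and *Sox17* (3.16) and lowest for *Lamb1* (1.19) and *Sparc* (1.23). Against the codon 37 clones S37A, S37C and S37F alone, the ratio was 2.33 for *Gata6*, 1.57 for *Srgn* and 1.05 for *Lama1*. The S37Y mutation had a single clone, so clone and mutation cannot be told apart. The chromosomes that carry the 10 genes showed no shift in A5, with median log2 ratios to the median clone of 0 to 0.037.

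**Figure D4:**
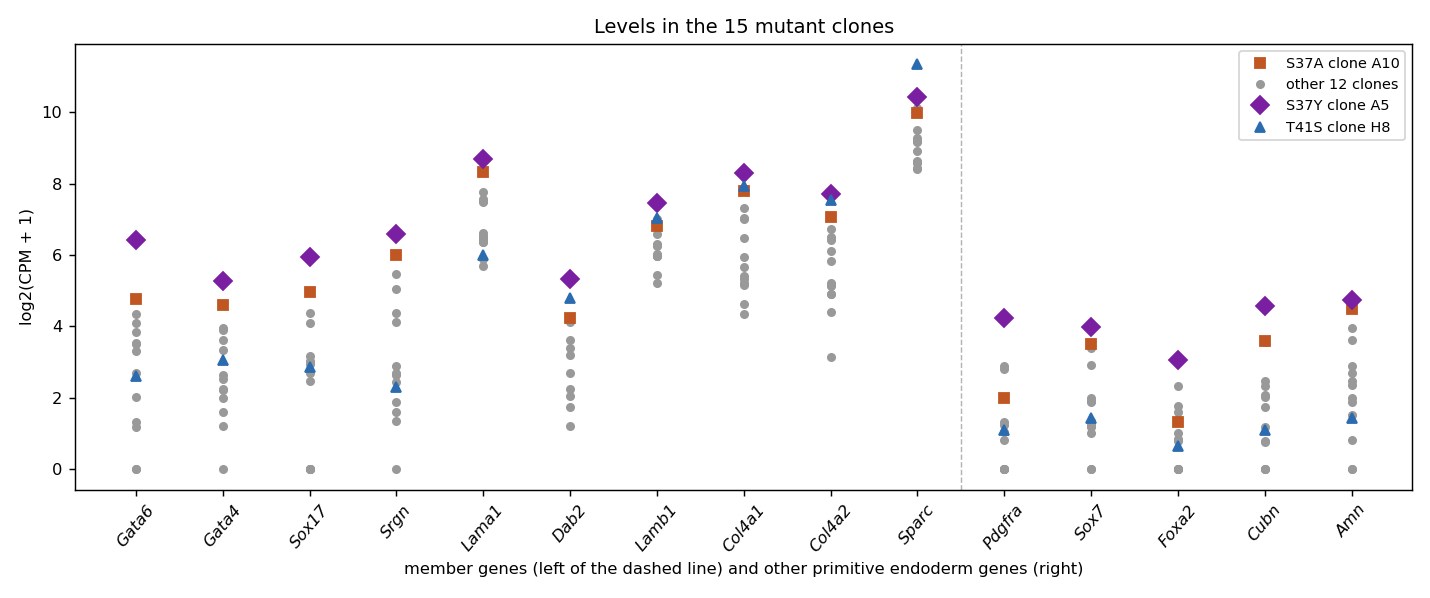
Log2(CPM + 1) (y axis) of the 10 genes and of 5 other primitive endoderm genes in the 15 clones, with S37Y A5, S37A A10 and T41S H8 marked. S37A A10 was second to A5 for *Gata6*, *Gata4*, *Sox17*, *Srgn* and *Lama1*, whereas T41S H8 was second for *Dab2*, *Lamb1*, *Col4a1* and *Col4a2*, and first for *Sparc*.

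Among the clones the 10 genes fell into 2 patterns, a division made after seeing the values. *Gata6*, *Gata4*, *Sox17*, *Srgn* and *Lama1* were correlated with each other at a Pearson r of 0.72 to 0.93 over the 14 clones without A5 (median 0.82, 10 pairs, log2(CPM + 1)). *Dab2*, *Lamb1*, *Col4a1*, *Col4a2* and *Sparc* were correlated with each other at 0.49 to 0.96 (median 0.80, 10 pairs). Between the sets r ran from -0.36 to 0.64 with a median of 0.22 over 25 pairs. The pair with the highest r was *Col4a1* with *Col4a2* (0.96). These values describe 14 clones that include 4 pairs from 1 mutation each, and each library's depth enters all genes. Within the 8 strong clones the division was not seen, since r between the sets had a median of 0.86, against 0.92 and 0.80 within them. T41S H8 and T41N D3 were high in the second set and had 5.08 and 0 CPM of *Gata6*, below its median of 7.21 CPM over the 14 clones. T41S H8 was nonetheless above the medians of *Gata4* (7.34 against 5.01 CPM) and *Sox17* (6.21 against 5.86 CPM).

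**Figure D5:**
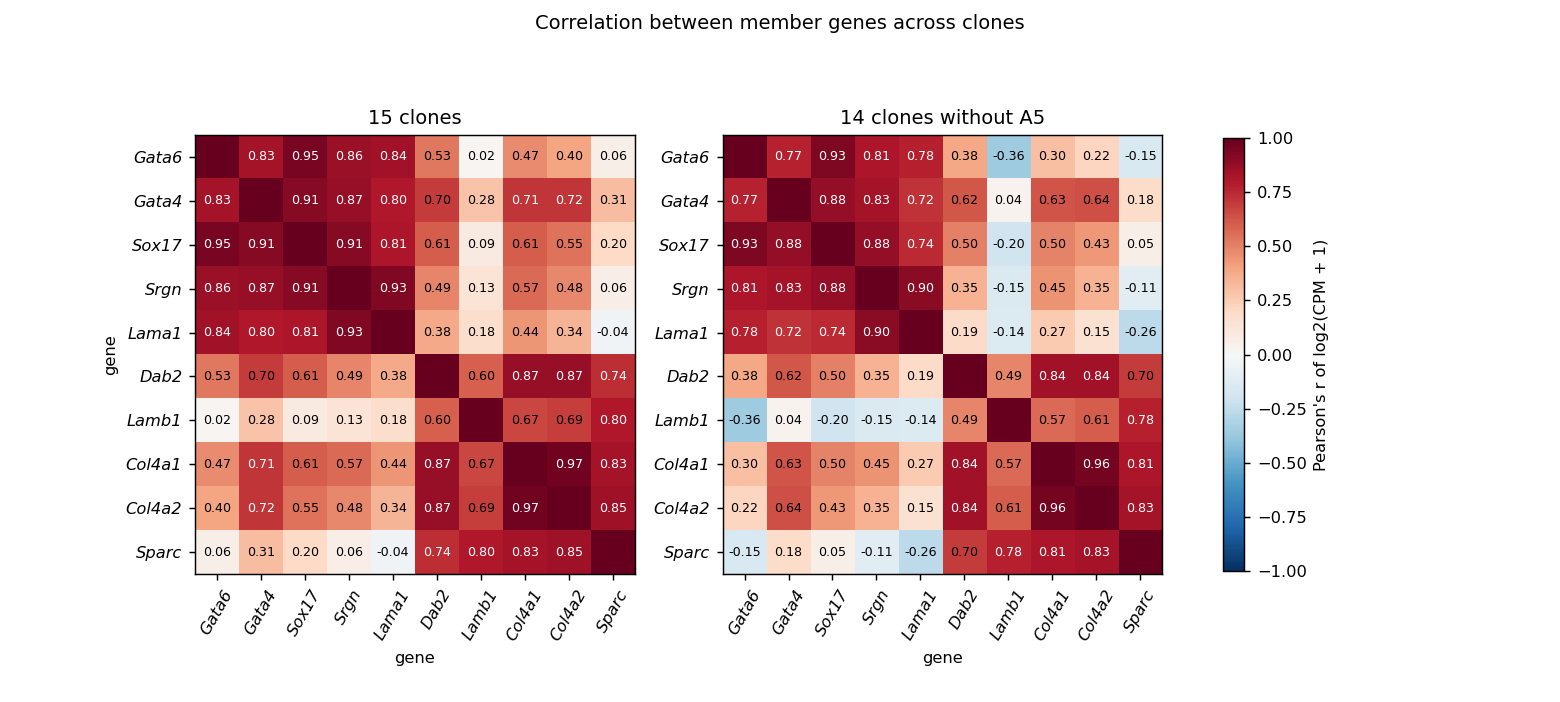
Pearson's r of log2(CPM + 1) between each pair of genes (colour, from -1 to 1) over all 15 clones and over the 14 clones without A5. The upper left block (*Gata6*, *Gata4*, *Sox17*, *Srgn*, *Lama1*) and the lower right block (*Dab2*, *Lamb1*, *Col4a1*, *Col4a2*, *Sparc*) hold the high values, and *Col4a1* with *Col4a2* reached 0.97 over 15 clones.

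Clones with the same mutation differed. T41A C1 and E6 had 16.2 and 8.92 CPM of *Gata6*, 19.8 and 6.69 CPM of *Sox17*, 32.4 and 5.20 CPM of *Srgn* and 131 and 41.6 CPM of *Col4a1*. The T41I clones A6 and B9 had 0 and 4.82 CPM of *Gata4*. Over the 4 mutations with a pair of clones, the SD within a mutation on the log2(CPM + 1) scale was 0.81 for *Gata6*, 1.39 for *Sox17* and 0.34 for *Sparc*. The SD over the 14 clones was 1.55, 1.82 and 0.87 for the same genes, and it was larger than the SD within mutations for all 10 genes.

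Further genes of the primitive endoderm, 15 in all, were examined as a list. For this list and those below, the shares of all genes called in each fit are the ones given above. In A5, 5 of them stood above every other clone and at least 2 times the median of the others: the growth factor receptor gene *Pdgfra* (17.8 CPM, next clone 6.39), the SOX factor gene *Sox7* (14.8, next 10.4), *Foxa2* (7.41, next 4.04), and the endocytic receptor genes *Cubn* (22.7, next 11.2) and *Amn* (25.7, next 21.6). The second clone was S37A A10 for *Sox7*, *Cubn* and *Amn*. These 5 genes had 15 (*Foxa2*) to 52 (*Amn*) counts in A5. The 0.827% share for the A5 rule covers genes whose mean reached 5 CPM, a floor not applied to this list or those below. Counts under the A5 rule in these lists are therefore not read as results. In strong against weak clones 3 of the 15 passed the filter, 0 rose and 2 fell, *Lrp2* (-3.01 ± 0.39) and *Krt19* (-1.91 ± 0.48, log2, SE, adjusted p = 0.00017 and 0.0105, edgeR). *Lrp2* encodes megalin, a receptor that works with the products of *Cubn*, *Amn* and *Dab2*, and it was highest in T41S H8 (118 CPM), T41N D3 (98.9 CPM) and S45C D3 (87.5 CPM). With CHIR99021 4 of the 15 were tested, *Plat* and *Krt19* rose (0.17 and 0.090 log2 units per µM) and *Lrp2* fell (-0.31 per µM, adjusted p = 4.99e-06, edgeR). *Plat* had 4 and 3 counts at 0 µM and passed the filter through the treated libraries. *Lrp2* had 1 to 8 counts per library at 7.5 and 10 µM and passed through the lower doses. The dose calls of *Plat* and *Lrp2* are therefore not read as support. Against untreated cells *Fst*, which encodes the activin inhibitor follistatin, rose (2.98 ± 0.91, log2, SE, adjusted p = 0.029, edgeR), 1 of 7 tested. The untreated libraries held only 3 and 1 *Fst* counts, so the gene passed the filter through the clones and its call is not read as support.

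Other basement membrane genes, 12 in all, were examined in the same way. None met the A5 rule, although *Lamc1* and *Lamb2* were highest in A5, and T41S H8 was the highest of the other 14 clones for 7 of the 12. In this list 0 rose and 5 fell in strong against weak clones, and the median log2 fold change of the list was -0.50 against -0.01 over all genes. The genes that fell were those for the laminin receptor integrins, *Itga3* (-2.44 ± 0.37), *Itgb1* (-1.37 ± 0.29) and *Itga6* (-0.58 ± 0.15), with *Hspg2* and *Dag1* (log2, SE, adjusted p from 0.00057 to 0.042, edgeR). *Itga3* was at 421 CPM in T41S H8, 311 CPM in T41N D3 and 199 CPM in S45C D3, against 22.3 to 104 CPM in the other 12 clones. *Lamc1*, the γ1 chain that completes laminin-111, was at 202 CPM in A5 and 141 to 193 CPM in the other clones, and it rose in clones over untreated cells (0.72 ± 0.14, log2, SE, adjusted p = 0.0015, edgeR). With dose, *Col18a1* and *Nid1* fell and 0 of 12 rose.

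Genes for collagen processing, 10 in all, rose with CHIR99021 in 3 cases: *Serpinh1*, a collagen chaperone (0.122 ± 0.018 log2 units per µM, adjusted p = 1.24e-05), *P4ha2*, a prolyl hydroxylase subunit (0.074 ± 0.018), and *P4hb* (0.044 ± 0.012, SE, edgeR). In strong over weak clones *P4ha2* (1.11 ± 0.37) and *Crtap* (0.49 ± 0.16) rose and 0 fell (log2, SE, adjusted p = 0.044 and 0.037, edgeR). *P4ha1* fell in clones against untreated cells (-1.93 ± 0.35, adjusted p = 0.0011, edgeR). In A5, *P4ha1* (67.2 CPM) and *P4ha2* (73.1 CPM) met the A5 rule. *Serpinh1* was highest in T41S H8 (555 CPM), followed by T41N D3 (254 CPM) and A5 (204 CPM).

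Of the 12 epiblast genes, 4 rose in strong over weak clones and 0 fell, beside 7.34% of all genes rising and 9.16% falling. The 4 were *Tbx3* (1.59 ± 0.25), *Tfcp2l1* (1.26 ± 0.26), *Klf4* (1.18 ± 0.23) and *Zfp42* (0.58 ± 0.15, log2, SE, adjusted p from 0.00071 to 0.0126, edgeR). The epiblast sum of the weak clones was spread from 2043 to 5741 CPM, against 4833 to 4960 CPM in the untreated libraries. The part of the lowest weak clones in these calls is not separated here. With dose 3 rose and 6 fell, *Nanog* among the latter (-0.056 ± 0.015 log2 units per µM, SE, adjusted p = 0.0088, edgeR). Against untreated cells *Zfp42* rose, and *Fgf4* and *Tdgf1* fell. Of the 10 genes of FGF-ERK signalling, 6 rose in clones over untreated cells, with *Spry4* (2.32 ± 0.52) and *Etv4* (2.27 ± 0.39, log2, SE, adjusted p = 0.0050 and 0.00088, edgeR) foremost. In strong over weak clones *Spry2* and *Spry4* rose and *Dusp4*, *Fgfr2* and *Fgfr1* fell, and with dose 4 rose and 0 fell. *Spry4* met the A5 rule (289 CPM, next clone T41A C1 at 246 CPM).

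Some fibroblast and trophoblast genes were also high in T41S H8. The summed level of 7 fibroblast genes reached 168 CPM in T41S H8, mostly *Col1a1* (126 CPM), against 4.82 to 14.9 CPM in the strong clones, 28.7 to 37.0 CPM in the untreated libraries and 16.3 CPM in A5. T41N D3 had 48.4 CPM and S45C D3 34.7 CPM of *Col1a1*. *Col1a2* (19.8 CPM) and *Col3a1* (12.4 CPM) were highest in T41S H8 as well and *Dcn* (4.53 CPM) in S45C D3, while *Lum* had 0 counts in 14 of 15 clones. The sum of 8 trophoblast genes was 57.8 to 128 CPM in weak clones, 32.8 to 50.6 CPM in strong clones and 37.0 CPM in A5. In the untreated libraries it was 85.1 to 89.1 CPM, inside the weak range and above the strong clones. *Cdx2* was at most 2.5 CPM in any clone. Of these, *Tfap2c* fell with dose, in strong against weak clones (-1.05 ± 0.19, log2, SE, adjusted p = 0.0016, edgeR) and against untreated cells, while *Gata3* and *Krt7* rose with dose. In the clones *Gata3* (26.5 CPM) and *Krt7* (52.5 CPM) were highest in T41S H8. The 8 genes of mesendoderm and definitive endoderm summed to 29.5 to 82.5 CPM in weak clones and 38.8 to 107 CPM in strong clones, with 0 called in strong against weak clones and *Cer1* at 0 counts. With dose *T* and *Mixl1*, both primitive streak genes, rose, and against untreated cells *Hhex* fell. The 6 endothelial and blood genes summed to 20.2 to 47.7 CPM in weak clones and 36.5 to 60.9 CPM in strong clones, most of it *Pecam1*, which ES cells express. No fibroblast gene reached the filter in strong against weak clones, so none was tested there; 2 were tested with dose and 1 against untreated cells, and 1 endothelial or blood gene in each fit, with 0 called (edgeR). The part of these other markers in the levels of *Sparc*, *Dab2* and the collagens in T41S H8, T41N D3 and S45C D3 was not tested.

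Genes outside the list were ranked by the likeness of their pattern over the 15 clones, as Pearson's r of log2(CPM + 1) with the mean z-score of the 10 genes, among 8883 genes whose mean reached 10 CPM. The 10 nearest were *Foxq1* (r = 0.93), *Me1* (0.92), *Rrbp1* (0.86), *Slc7a6* (0.85), *Jak1* (0.84), *Lgmn* (0.84), *Selenok* (0.84), *Ctsl* (0.83), *Kdelr2* (0.83) and *Ostf1* (0.82). Over the 14 clones without A5, *Foxq1* (0.90), *Me1* (0.90), *Cyba* (0.85), *Jak1* (0.84) and *Rab11fip5* (0.83) were nearest. *Foxq1*, a forkhead factor gene, was at 69.6 CPM in A5 and 3.02 to 36.5 CPM in the other clones. *Rrbp1*, *Selenok* and *Kdelr2* encode proteins of the endoplasmic reticulum or its retrieval pathway, and *Ctsl* and *Lgmn* encode lysosomal proteases. None of these was among the nearest genes listed without A5. The 10 genes were chosen by their values in A5, which enters the ranking over 15 clones. That ranking is therefore a description, and no shared function is read from it.

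Among the 8820 genes with at least 20 counts in A5, those with the largest ratio of A5 to the next clone were *Gm21738*, *Gata6*, *Pdgfra*, *Pth1r*, *Dkk1*, *Cubn*, *Sox17*, *Tle6*, *Foxq1* and *Gm10800*. The 10 genes were selected on their A5 values, so their ranks are a description. *Gata6* ranked 2 of the 8820 with a log2 ratio of 1.68, *Sox17* 7, *Gata4* 15, *Srgn* 21, *Dab2* 30, *Lamb1* 44, *Lama1* 53, *Col4a1* 59, *Col4a2* 175 and *Sparc* 7316. *Pth1r*, which encodes a parathyroid hormone receptor known from parietal endoderm, was at 21.7 CPM against 8.19 CPM in S37A A10. Of the 15 further primitive endoderm genes, 5 met the A5 rule, a count not read as a result, and *Plat* and *Krt19* were not raised in A5. They were at 0.99 and 43.0 CPM there, near the medians of the other clones (1.12 and 39.4 CPM). Both were highest in T41S H8 (37.8 and 369 CPM). *Dkk1*, a secreted Wnt antagonist, was at 20.2 CPM against 8.99 CPM in T41A C1.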

How the data were processed

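RNA from 25 E14 libraries was profiled by mcSCRB-seq. The deposited values are raw counts per gene with no normalization, 1 column per library. Per the study's methods, the authors trimmed reads with Cutadapt, extracted molecular identifiers with UMI-tools, removed rRNA with SortMeRNA, aligned to mm10 with RNA STAR, removed duplicates and counted with featureCounts (2.0.1, per the submitters' processing notes). The annotation release and strand setting are not given in the sources used here. Reads of overlapping genes such as *Col4a1* and *Col4a2* may therefore be shared.

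Symbols came from GENCODE M21, where 48058 of 48440 gene IDs matched. CPM used total counts (306157 to 2083398). Tests used edgeR 4.0.16 (R 4.3.3), with TMM, filterByExpr with a minimum count of 10, the quasi-likelihood F-test, and a false discovery rate of 0.05 over all genes tested. The dose fit used the 10 unedited libraries with the dose in µM, the class fit 14 clones, and the last fit 14 clones and the 2 untreated libraries. DESeq2 1.42.0 was an alternative, as were RLE factors, no filter, leaving out each library, a replicate block, dose rank, both 0 µM libraries left out, mitochondrial share as a covariate, MES as a number, A5 included, counts summed per mutation, and all unedited libraries. Leaving out the 3 clones of lowest MES was added after the data were seen. Steps were tested on simulated data. Same-numbered libraries did not deviate together across doses (r -0.13 to 0.12 over 10 pairs of doses), so numbers were not taken as pairs.

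The 10 members and all lists were chosen with earlier results of these data known. Named genes are the 10 members and, up to 6 per list, genes that passed in 1 of the 3 fits or met the A5 rule; further genes that make up a small count are named too, chosen after their values were seen. Further named are the 10 genes nearest in pattern over 15 clones, the 5 nearest over 14, and the 10 highest in A5 against the next clone. Marker genes given for the check of cell type, with *Lum*, *Gata3* and *Krt7* among them, come from the marker lists. Of the genes first put in the primitive endoderm list, 1 was left out and is not reported here. Promoter sequences are from RefSeq (GRCm38.p6).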

Additional observations from a re-analysis of the deposited data

How the results depend on the processing

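Of 308 single-gene values refitted without 1 library, 290 kept their direction and their side of the threshold, as did 151 of 171 under other alternatives and 65 of 80 counts. In the dose fit, leaving out 1 library gave 252 to 625 genes rising, 275 to 704 falling and 1 to 2 members rising, the low ends without replicate 1 at 0 µM. Without both 0 µM libraries 63 rose, 58 fell and 1 member rose, and *Lamb1* (0.013) and *Sparc* (-0.032 per µM) changed sign. With no filter 1 member fell. With a replicate block in place of unpaired libraries 538 genes rose, 602 fell and 2 members rose, and no call of a member changed.

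In strong against weak clones the main fit gave 2 members rising and 0 falling. No filter gave 4 rising and 1 falling, beside 3.93% of all genes rising and 5.02% falling. MES as a number gave 1 rising and 2 falling, a count with no share over all genes beside it, so it is not read as a result about the members. A5 included gave 4 rising, with *Dab2* at 0.19, *Col4a1* at 0.28 and *Col4a2* at 0.022. The members were chosen by A5, so nothing is read from the fit with A5. Without 1 clone, 0 to 2 members fell, and *Dab2* ran from -0.46 to 0.40, *Col4a1* from -0.41 to 0.70 and *Col4a2* from -0.62 to 0.36. Without the 3 lowest-MES clones 150 genes rose, 200 fell and 1 member rose, with *Dab2* at 1.29, *Col4a1* at 1.52, *Col4a2* at 1.09 and *Sparc* at 0.32. Fewer clones entered that fit.

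In clones against untreated cells, leaving out 1 library gave 157 to 1233 genes rising and 148 to 1326 falling, the low ends without 1 of the 2 untreated libraries, where the lone one is assumed to vary like the clones. *Gata4* ran from -0.60 to 1.02, and was at -0.042 with DESeq2. With all unedited libraries 1950 genes rose, 1901 fell and 2 members rose, both of which (*Sox17* and *Srgn*) passed the filter through the clones and are not read as support. Depth limits *Gata6*, *Gata4*, *Sox17*, *Srgn* and *Dab2* most, with 14 to 76 counts each over all unedited libraries.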
